A study of Homo sapiens with 12 samples.

Results

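The core circadian clock was followed through 10 genes chosen by name: PER1, PER2 and PER3, CRY1 and CRY2, ARNTL (now BMAL1), CLOCK, NR1D1, NR1D2 and DBP. All 10 had values in every library, among 19907 genes in all, and all 10 passed the filter on low values, as did 15957 genes of the series. The cells were MDA-MB-231, a human line of triple-negative breast cancer, which lacks the oestrogen and progesterone receptors. There were 4 groups of 3 RNA-seq libraries. The S134A-GR Dex group expressed a glucocorticoid receptor (GR) with a serine changed to alanine and received 1 µM dexamethasone (Dex), a synthetic glucocorticoid, for 6 h, and the S134A-GR Veh group was the same cells with vehicle. The WT-GR Dex group expressed the wild-type receptor and received 1 µM Dex for 6 h, and the WT-GR Veh group was these cells with vehicle. All 4 groups shared a serum starvation of 18 h beforehand, in IMEM medium with 1% DCC. The sources used here do not give how the receptors were introduced, whether each line is a clone or what the vehicle was. The labels do not name separate cultures within a group. The p-values therefore cover the spread among these libraries alone, and that spread may be technical.

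The molecular clock is a feedback loop of transcription. CLOCK and ARNTL pair up, bind E-box motifs and switch on the PER and CRY genes, whose proteins return to the nucleus and inhibit that pair. The nuclear receptors REV-ERB alpha (NR1D1) and REV-ERB beta (NR1D2) repress ARNTL, and DBP activates genes through D-box motifs. Glucocorticoids reset clocks in many peripheral tissues and cultured cells, and PER1 is a well-known direct target of the ligand-bound receptor.

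The promoters of 5 members whose mRNA moved with Dex are printed to show which clock motifs lie beside the start sites. The sequences are RefSeq's, on GRCh38.p14, and run 5′ to 3′ on the gene's strand from 250 bases before to 50 bases after the start. Capitals mark the E-box CACGTG, the D-box TTANGTAA and the nuclear receptor half-site AGGTCA, each searched on both strands. NR1D1 is shown as a member with none of them, and CRY1, CLOCK and DBP, not printed, also had none. ARNTL, which like CLOCK fell with Dex in WT-GR cells, is not printed either. The first listed NR1D2 start, also not printed, had none of the motifs.
PER1, chr17:8152355-8152654, minus strand: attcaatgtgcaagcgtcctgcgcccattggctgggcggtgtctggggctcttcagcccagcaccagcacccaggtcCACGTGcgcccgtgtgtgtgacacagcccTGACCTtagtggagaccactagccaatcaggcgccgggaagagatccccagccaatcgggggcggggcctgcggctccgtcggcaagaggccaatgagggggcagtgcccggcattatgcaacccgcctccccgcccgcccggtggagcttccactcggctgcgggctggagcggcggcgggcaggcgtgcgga
PER2, chr2:238288561-238288860, minus strand: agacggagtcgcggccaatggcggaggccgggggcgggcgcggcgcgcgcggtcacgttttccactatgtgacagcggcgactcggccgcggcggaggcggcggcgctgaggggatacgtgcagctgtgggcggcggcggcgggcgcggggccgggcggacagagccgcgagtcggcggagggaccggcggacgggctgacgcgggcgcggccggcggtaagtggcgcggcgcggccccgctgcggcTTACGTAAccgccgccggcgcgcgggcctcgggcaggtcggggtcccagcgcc
CRY2, first listed start, chr11:45846868-45847167, plus strand: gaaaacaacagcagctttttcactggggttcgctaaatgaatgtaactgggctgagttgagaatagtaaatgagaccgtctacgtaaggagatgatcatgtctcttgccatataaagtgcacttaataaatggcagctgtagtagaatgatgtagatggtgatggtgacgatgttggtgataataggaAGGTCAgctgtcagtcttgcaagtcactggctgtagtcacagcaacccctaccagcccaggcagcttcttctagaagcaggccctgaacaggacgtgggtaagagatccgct
NR1D1, chr17:40100540-40100839, minus strand: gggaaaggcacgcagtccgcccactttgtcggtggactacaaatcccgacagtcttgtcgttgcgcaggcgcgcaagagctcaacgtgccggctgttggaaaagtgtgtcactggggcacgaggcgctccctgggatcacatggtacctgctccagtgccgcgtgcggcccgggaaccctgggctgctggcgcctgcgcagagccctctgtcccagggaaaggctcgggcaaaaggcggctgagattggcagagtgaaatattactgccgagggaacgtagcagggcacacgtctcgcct
NR1D2, second listed start, chr3:23945871-23946170, plus strand: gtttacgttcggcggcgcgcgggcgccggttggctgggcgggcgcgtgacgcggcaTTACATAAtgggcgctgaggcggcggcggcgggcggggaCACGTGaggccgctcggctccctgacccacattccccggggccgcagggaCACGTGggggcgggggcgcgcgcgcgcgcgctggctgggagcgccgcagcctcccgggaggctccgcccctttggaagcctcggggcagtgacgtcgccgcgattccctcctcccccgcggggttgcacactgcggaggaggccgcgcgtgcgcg

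The first transcribed base is counted as 1 and the base before it as -1. The PER1 window held an E-box from -173 to -168 and a half-site from -144 to -139. In PER2 a D-box spanned the start, from -3 to 5, and in CRY2 a half-site lay from -62 to -57. The second NR1D2 window held a pair of E-boxes, from -155 to -150 and from -105 to -100, and a D-box from -194 to -187. RefSeq's table matched all 10 members, with 15 start sites. An E-box was found in 2 of the 10, against 8.77% of 27305 genes in that table, a D-box in 3 (2.71% of genes) and a half-site in 3 (16.5%). The cyclic AMP response element TGACGTCA was found in none of the 10 (2.25% of genes), and the shorter TGACG, which the full element contains, in 5 (28.4%). A glucocorticoid response element, searched as GNACA and TGTNC with 3 bases between them, was in none of these windows and in 0.480% of genes. A match is a run of letters, and no match says only that these letters are not within these windows.

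Values are normalized read counts, the authors' counts divided by a size factor of the library. Recovered depth was 56.4 M reads (M, mega) in WT-GR Veh replicate 1 and 56.9 M in WT-GR Dex replicate 1. The other libraries had 82.4 to 100.6 M. The members were covered by 117 reads (DBP) to 12290 reads (PER1) in a library. The deposited Dex files carry shifted gene names, so the vehicle files' names were given to them by line order. Matched so, each Dex library correlated with the vehicle mean across genes at r = 0.982 to 0.986, and matched by the deposited names at r = -0.0059 to -0.004. These correlations are across genes, which are not independent replicates. Replicates 2 and 3 of WT-GR Dex stood apart: 193 and 210 genes had exactly 1 read in them, against 352 to 409 genes in the other 10 libraries. FKBP5, a textbook GR target, lay at 37722 to 37962 in S134A-GR Dex, 3732 to 3766 in S134A-GR Veh, 49104 to 54595 in WT-GR Dex and 3785 to 4106 in WT-GR Veh. The receptor gene NR3C1 averaged 7784 ± 495 in S134A-GR Dex, 8815 ± 259 in S134A-GR Veh, 9389 ± 784 in WT-GR Dex and 11771 ± 1186 in WT-GR Veh (SD, n = 3 each). Of the markers of this mesenchymal line, 6 of 6 were detected in every group, with sums of 771497 to 785456 in S134A-GR Dex, 833184 to 838415 in S134A-GR Veh, 821615 to 848751 in WT-GR Dex and 866399 to 903650 in WT-GR Veh. Of 6 luminal breast markers 5 had values, with sums of 97800 to 108183 in S134A-GR Dex, 95354 to 101303 in S134A-GR Veh, 112047 to 131614 in WT-GR Dex and 97615 to 104571 in WT-GR Veh, and the oestrogen receptor gene ESR1 stayed between 0 and 5.66. Of 5 leukocyte markers 2 had values, and their sum was at most 58.0 in any library. All 5 fibroblast and endothelial markers were detected, with summed levels of 5454 to 5719 in S134A-GR Dex, 5270 to 5513 in S134A-GR Veh, 5797 to 6945 in WT-GR Dex and 4742 to 5049.5 in WT-GR Veh. The mesenchymal sums were thus lower with Dex in both genotypes, and the luminal and the fibroblast and endothelial sums were higher with Dex in WT-GR cells without overlap. Members of each list went both ways with Dex in WT-GR cells. Their log2 differences ran from -0.56 for CD44 to 0.49 for CAV1 in the mesenchymal list, where VIM alone had values of 366469 to 431198. Those of the luminal genes tested ran from -0.25 for FOXA1 to 0.50 for GATA3. In the fibroblast and endothelial list they ran from -0.31 for COL1A1 to 1.07 for CDH5. The part of these markers in the results was not tested. In such bulk RNA, fewer cells of a type and less RNA per cell cannot be told apart.

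Dex raised PER1, PER2 and CRY2 and lowered NR1D1 in both genotypes. In S134A-GR cells PER1, PER2, CRY2 and NR1D2 rose and NR1D1 fell, so that 5 of the 10 members passed the limma threshold (adjusted p under 0.05 over all genes tested), against a background of 15.7% of genes. In WT-GR cells PER1, PER2 and CRY2 rose and ARNTL, CLOCK and NR1D1 fell, so that 6 of the 10 passed, against 27.9% of genes. With only the compared groups in the fit these backgrounds were 21.6% in S134A-GR and 15.6% in WT-GR cells, so their order depends on the fit. The ranges of the 3 libraries did not overlap for 4 members that were higher and 2 that were lower with Dex in S134A-GR cells, where 18.2% and 20.4% of all genes showed such separation. In WT-GR cells they did not overlap for 3 higher and 5 lower members, against 16.7% and 18.3% of genes. Called in both genotypes were 3 members that were higher and 1 that was lower, against 5.79% and 5.31% of genes. The median size of the change (absolute log2) was 0.38 over the members and 0.13 over all genes in S134A-GR cells, and 0.32 over the members and 0.19 over all genes in WT-GR cells. The calls over all genes in WT-GR cells were 2216 higher and 2239 lower, and 1448 higher and 3023 lower with scaling by library size alone.

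**Figure D1:**
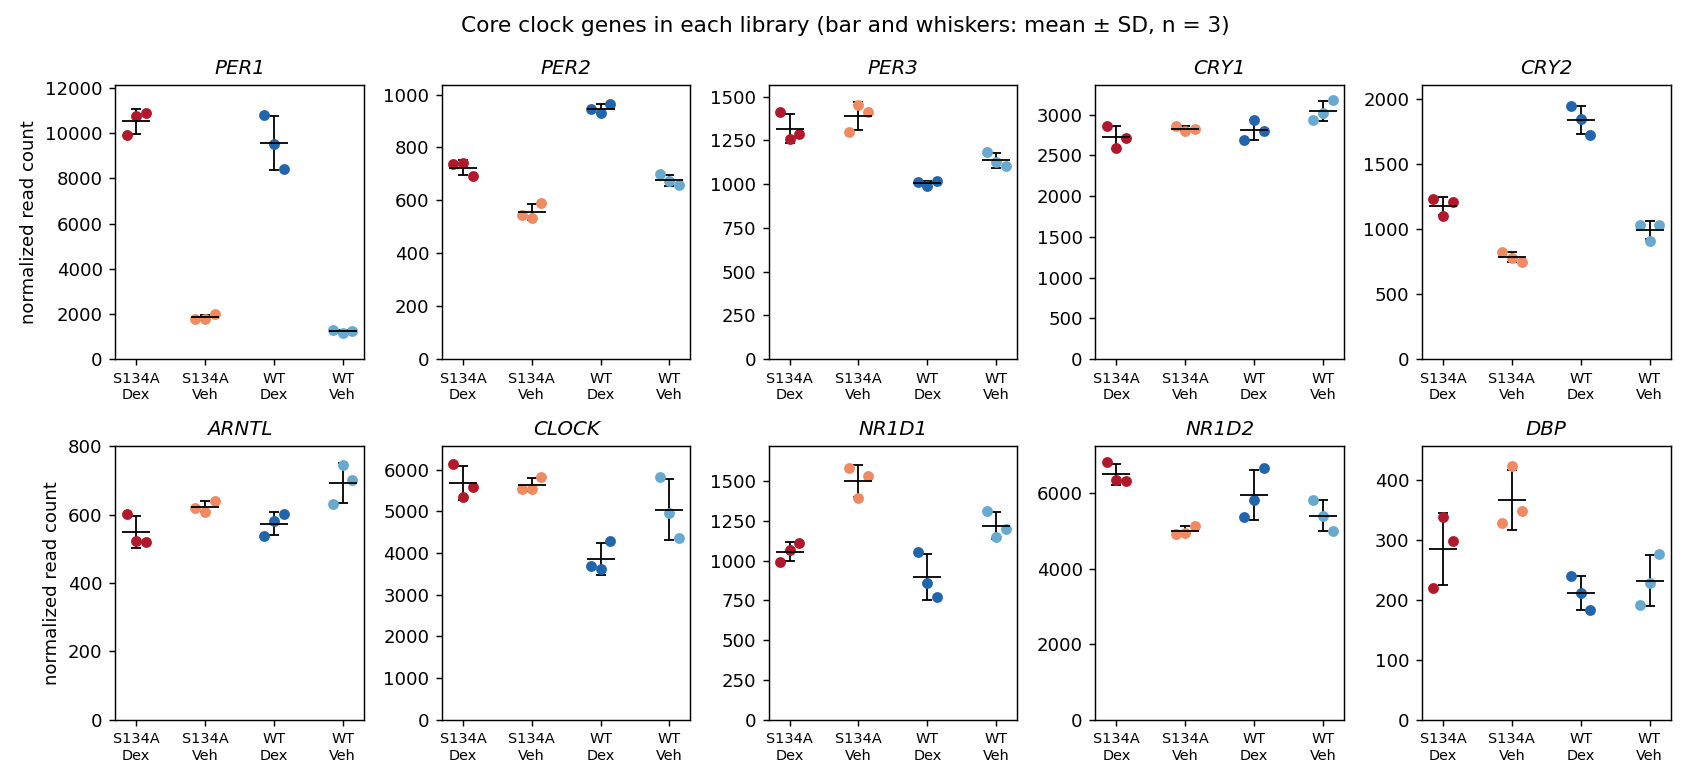
Normalized read count (vertical axis, from 0) of each core clock gene in each of the 12 libraries, by group. Points are libraries, bars and whiskers the mean ± SD (n = 3). PER1 lies between 8422 and 10910.3 in the Dex groups and between 1166 and 1980.4 in the vehicle groups, CRY2 is highest in WT-GR Dex, and CRY1 lies between 2588 and 3177 throughout.

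PER1, a period gene known for its quick induction by light and hormones, gave the largest change of the 10. It had 9902, 10756 and 10910.3 normalized reads in S134A-GR Dex libraries, against 1753, 1787 and 1980.4 in S134A-GR Veh. In WT-GR Dex it had 10798, 9503 and 8422, against 1269, 1166 and 1261 in WT-GR Veh. Every Dex library lay several times above every vehicle library of its genotype, and the Dex groups overlapped each other while the vehicle groups did not. The ratio of means was 5.72 in S134A-GR cells, a log2 difference of 2.52 ± 0.082 (SE; 95% interval 2.34 to 2.69; adjusted p = 6.84e-11). In WT-GR cells it was 7.77, a log2 difference of 2.95 ± 0.082 (95% interval 2.77 to 3.13; adjusted p = 1.25e-11). Ordered from the largest rise down, PER1 ranked 50 of 15957 genes in S134A-GR cells and 31 in WT-GR cells.

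PER2 encodes a second period protein, a partner of the CRY repressors. Its values were 739, 741 and 692 in S134A-GR Dex, against 545, 534 and 589.8 in S134A-GR Veh, and 944, 931 and 965 in WT-GR Dex, against 699, 673 and 657 in WT-GR Veh. In both genotypes all Dex libraries lay above all vehicle libraries, and the S134A-GR Dex range overlapped that of WT-GR Veh, the next group down. The log2 rise was 0.38 ± 0.073 (ratio 1.30, adjusted p = 0.00217) in S134A-GR cells and 0.48 ± 0.073 (ratio 1.40, adjusted p = 0.00027) in WT-GR cells. PER3, the third period gene, which is dispensable for rhythms in mice, did not pass in either genotype in the main limma fit. It averaged 1318 ± 82.9 in S134A-GR Dex and 1389 ± 79.7 in S134A-GR Veh, with overlapping ranges, and a log2 difference of -0.08 (95% interval -0.22 to 0.07). In WT-GR cells it had 1011, 991 and 1018 with Dex, against 1183, 1125 and 1101 with vehicle. There the Dex libraries all lay below the vehicle libraries, but the log2 difference of -0.17 (95% interval -0.32 to -0.03) did not pass after adjustment (adjusted p = 0.0754). PER3 levels ran from S134A-GR Veh through S134A-GR Dex and WT-GR Veh to WT-GR Dex, and the first 2 of these groups overlapped. PER3 shares 868 exonic bases with UTS2 on the opposite strand, which was not analysed here.

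The cryptochromes are potent repressors of the CLOCK and ARNTL pair. CRY2 had 1227, 1096 and 1205 normalized reads in S134A-GR Dex, against 822, 777 and 749 in S134A-GR Veh. In WT-GR Dex it had 1941, 1846 and 1722, against 1033, 910.0 and 1029.8 in WT-GR Veh. The groups did not overlap anywhere in their order, which ran from WT-GR Dex at the top through S134A-GR Dex and WT-GR Veh to S134A-GR Veh. The log2 rise was 0.59 ± 0.078 (ratio 1.502, adjusted p = 9.54e-05) in S134A-GR cells and 0.89 ± 0.078 (ratio 1.85, adjusted p = 1.62e-06) in WT-GR cells. CRY1 did not pass in either genotype in the main limma fit. It averaged 2723 ± 140 in S134A-GR Dex, 2831 ± 26.6 in S134A-GR Veh, 2809 ± 122 in WT-GR Dex and 3044 ± 121 in WT-GR Veh (SD, n = 3 each). The WT-GR Veh range lay above that of S134A-GR Veh, the next group, and the lower neighbours overlapped. Its log2 differences with Dex were -0.06 (95% interval -0.18 to 0.06; adjusted p = 0.603) in S134A-GR cells and -0.12 (-0.24 to 0.0026; adjusted p = 0.134) in WT-GR cells.

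Of the activator pair, CLOCK encodes the partner with histone acetyltransferase activity. It had 6127, 5335 and 5587 in S134A-GR Dex, against 5540.4, 5546 and 5813 in S134A-GR Veh, groups that overlapped (log2 difference 0.01, 95% interval -0.19 to 0.22, adjusted p = 0.975). In WT-GR Dex it had 3679, 3607 and 4299, against 5820.2, 4957 and 4349 in WT-GR Veh. The WT-GR Dex libraries were the lowest of all 12, although the highest of them came close to the lowest WT-GR Veh library. The other neighbours in its order, from S134A-GR Dex through S134A-GR Veh to WT-GR Veh, overlapped. CLOCK fell by 0.38 on the log2 scale (SE 0.095, ratio 0.766, adjusted p = 0.00963) in WT-GR cells. ARNTL, the other member of the pair, had 602, 524 and 521 in S134A-GR Dex, against 619, 608 and 641 in S134A-GR Veh, and 538, 582 and 602 in WT-GR Dex, against 631, 746 and 701 in WT-GR Veh. Dex libraries lay below vehicle libraries in both genotypes, while the genotypes overlapped within each treatment. The log2 differences with Dex were -0.18 (95% interval -0.38 to 0.01; adjusted p = 0.234) in S134A-GR cells and -0.27 (-0.47 to -0.07; adjusted p = 0.0437) in WT-GR cells. That WT-GR call was lost in 13 of 23 alternatives, 9 of them with 1 library left out (any but WT-GR Veh replicate 1, WT-GR Dex replicate 3 and S134A-GR Dex replicate 1), where the log2 difference ran from -0.28 to -0.21 and the adjusted p from 0.0547 to 0.171.

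The REV-ERB gene NR1D1 encodes a heme-binding repressor. It had 990.1, 1067 and 1111 in S134A-GR Dex, against 1579.7, 1391 and 1529 in S134A-GR Veh, and 1057, 861 and 774 in WT-GR Dex, against 1312, 1146 and 1198 in WT-GR Veh. It fell with Dex in both genotypes without overlap, to 0.704 of the vehicle mean in S134A-GR cells (log2 difference -0.51 ± 0.10, adjusted p = 0.00373) and to 0.736 in WT-GR cells (-0.45 ± 0.10, adjusted p = 0.00611). The Dex groups overlapped each other and the vehicle groups did not. Leaving out WT-GR Dex replicates 2 and 3 leaves 1 library in that group, which is then assumed to vary like the libraries of the other groups. With all 3 libraries WT-GR Dex had the widest spread, a median SD over genes of 0.148 on the log2 scale. It was 0.0906 in S134A-GR Dex, 0.0646 in S134A-GR Veh and 0.094 in WT-GR Veh. A p-value on that assumption may be too small, so effect sizes alone are printed for that fit. Its calls still enter the counts over all alternatives, which carry the same limit. The WT-GR value of NR1D1 was then -0.20, beside 3.13 for PER1, 0.48 for PER2, 0.97 for CRY2, -0.36 for ARNTL and -0.44 for CLOCK. NR1D2, the paralog, had 6809, 6335 and 6328 in S134A-GR Dex, against 4909, 4943 and 5131 in S134A-GR Veh. It rose there without overlap by 0.38 ± 0.074 (ratio 1.30, adjusted p = 0.00265). In WT-GR Dex it had 5364, 5813 and 6660.5, against 5802, 5403 and 4986 in WT-GR Veh, groups that overlapped (log2 difference 0.14, 95% interval -0.02 to 0.30, adjusted p = 0.188). The order of NR1D2 levels ran from S134A-GR Dex through WT-GR Dex and WT-GR Veh to S134A-GR Veh, and each neighbouring pair overlapped.

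Exons of NR1D1 overlap those of THRA, the thyroid hormone receptor alpha gene on the opposite strand, over 263 bases, or 9.49% of NR1D1's exon length in GENCODE. THRA had 4413, 4692 and 4703 in S134A-GR Dex, against 2732, 2620.4 and 2723 in S134A-GR Veh, and 5304, 4855 and 4456 in WT-GR Dex, against 2859.6, 2567 and 2707 in WT-GR Veh. On the log2 scale it rose by 0.77 in S134A-GR cells (adjusted p = 9.44e-07) and by 0.84 in WT-GR cells (adjusted p = 4.15e-07), while NR1D1 fell. The sources used here do not say whether the counting used strand, so reads of the shared bases cannot be assigned to either gene with certainty.

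DBP, the D-box activator and a direct output of the CLOCK and ARNTL pair, was covered by the fewest reads of the 10. It had 219, 337 and 299 in S134A-GR Dex, against 328, 423 and 348 in S134A-GR Veh, and 239, 211 and 182 in WT-GR Dex, against 191, 228 and 276 in WT-GR Veh. Dex and vehicle ranges overlapped in both genotypes, as did all neighbours in the order from S134A-GR Veh through S134A-GR Dex and WT-GR Veh to WT-GR Dex. The log2 differences were -0.38 (95% interval -0.77 to 0.02; adjusted p = 0.221) in S134A-GR cells and -0.13 (-0.53 to 0.27; adjusted p = 0.637) in WT-GR cells, the widest intervals of the list. DBP shares 661 exonic bases, 23.0% of its exon length, with SPHK2 on the opposite strand, whose log2 difference with Dex was 0.04 in S134A-GR cells (adjusted p = 0.876) and 0.20 in WT-GR cells (adjusted p = 0.1102).

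**Figure D2:**
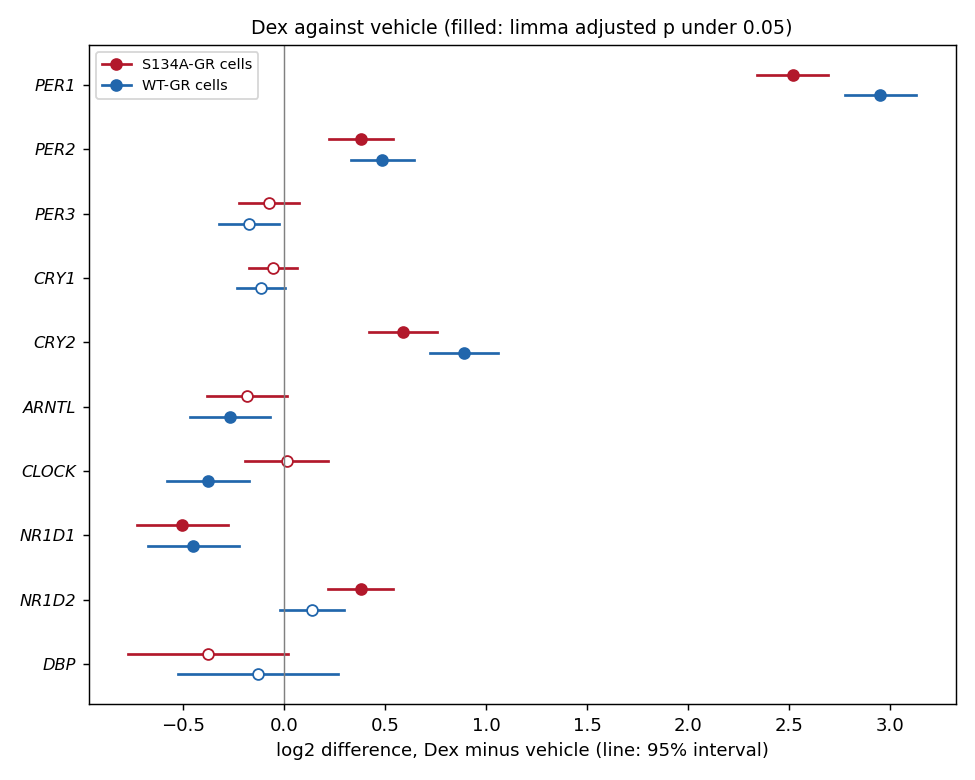
Log2 difference between Dex and vehicle for each core clock gene, S134A-GR cells above WT-GR cells. Lines are 95% intervals of the limma fit and filled points have an adjusted p under 0.05. PER1 stands alone at 2.52 and 2.95, and CLOCK is at 0.01 in S134A-GR and -0.38 in WT-GR cells.

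The difference between the responses of the genotypes was then tested. Over all genes 66 passed, or 0.414% of those tested, and none of the 10 members did with limma. Unadjusted p-values under 0.05 were found for 4 members, against 17.5% of all genes, and edgeR with TMM scaling also called 0 with 4 unadjusted, against 0.382% and 17.5% of genes. DESeq2 called 1, against 3.16% of genes. The S134A-GR response minus the WT-GR response was -0.43 for PER1 (95% interval -0.68 to -0.19; adjusted p = 0.128). It was 0.39 for CLOCK (0.10 to 0.68; adjusted p = 0.203), -0.30 for CRY2 (-0.54 to -0.07; adjusted p = 0.214) and 0.24 for NR1D2 (0.01 to 0.47; adjusted p = 0.266). For the other 6 members the intervals spanned 0, from CRY1 (0.06, -0.11 to 0.23) to DBP (-0.25, -0.81 to 0.31). This count rests on 1 library in particular: without WT-GR Dex replicate 3, PER1 (-0.52, adjusted p = 0.0201), CLOCK (0.47, adjusted p = 0.0416) and NR1D2 (0.33, adjusted p = 0.0386) passed, as did 1604 genes of the series, or 10.1%.

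The genotypes were compared within each treatment next. In Dex, S134A-GR cells had more CLOCK and PER3 and less CRY2 and PER2 than WT-GR cells, so that 4 of 10 members passed, against a background of 49.7% of genes. In vehicle they had more PER1, DBP, NR1D1 and PER3 and less CRY2 and PER2, so that 6 of 10 passed, against 50.5% of genes. These shares are near the background. The median absolute log2 difference was 0.32 over the members and 0.28 over all genes in Dex, and 0.29 over the members and 0.29 over all genes in vehicle. Ranges did not overlap for 2 higher and 2 lower members in Dex, against 25.3% and 27.1% of all genes, and for 4 higher and 3 lower in vehicle, against 31.5% and 32.7%. All-gene calls in Dex were 3730 higher and 4201 lower, and 5347 and 2896 with library-size scaling, which moved the median of all genes in this contrast to 0.11, against 0.01 in the limma fit. In vehicle they were 3804 higher and 4257 lower, and 4849 and 3285 with that scaling.

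Between genotypes PER1 overlapped in Dex, where the S134A-GR mean was 1.10 times the WT-GR mean (log2 difference 0.14, 95% interval -0.03 to 0.32, adjusted p = 0.166). Without WT-GR Dex replicate 1 that difference passed (0.23, adjusted p = 0.0207). In vehicle PER1 was 1.49 times as high in S134A-GR as in WT-GR cells (0.58 ± 0.082, adjusted p = 6.02e-05), with separate ranges. PER2 was lower in the S134A-GR cells under both treatments, with log2 differences of -0.39 in Dex (adjusted p = 0.000633) and -0.28 in vehicle (adjusted p = 0.00546). PER3 was higher in both, by 0.39 in Dex (adjusted p = 0.000403) and 0.29 in vehicle (adjusted p = 0.00323). CRY2 was again lower, at -0.64 in Dex (adjusted p = 1.65e-05) and -0.34 in vehicle (adjusted p = 0.00257). PER2, PER3 and CRY2 had ranges that did not overlap between genotypes in either treatment. With WT-GR Dex replicate 1 as the only library of its group, its spread taken from the other groups, the differences in Dex were -0.38 for PER2, 0.38 for PER3, -0.72 for CRY2 and 0.62 for CLOCK.

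The S134A-GR minus WT-GR difference of CLOCK was 0.56 in Dex (SE 0.095, ratio 1.47, adjusted p = 0.000275) and 0.17 in vehicle (95% interval -0.03 to 0.37, adjusted p = 0.154), where the ranges overlapped. It passed in vehicle without WT-GR Veh replicate 1 (0.28, adjusted p = 0.0179). DBP's difference in Dex was 0.42 (95% interval 0.02 to 0.82, adjusted p = 0.0735), and 0.60 with an adjusted p of 0.0172 without S134A-GR Dex replicate 1. It also passed with all 12 libraries under DESeq2 (0.45, adjusted p = 0.0375), library weights and library-size scaling, but not with TMM scaling in edgeR. DBP was 1.58 times as high in S134A-GR as in WT-GR cells in vehicle (0.67 ± 0.18, adjusted p = 0.00817), where SPHK2, its overlapping neighbour, was also higher (0.27, adjusted p = 0.0228). NR1D1 differed by 0.25 in Dex (adjusted p = 0.066), and by 0.37 with an adjusted p of 0.00447 without WT-GR Dex replicate 1. With all 12 libraries it too passed under DESeq2 (0.24, adjusted p = 0.0444), library weights and library-size scaling, but not with TMM scaling in edgeR. In vehicle NR1D1 was 1.23 times as high in S134A-GR as in WT-GR cells (0.30 ± 0.10, adjusted p = 0.0283), a call lost without S134A-GR Veh replicate 1 or 3 or WT-GR Veh replicate 2 or 3 (0.26 to 0.29, adjusted p 0.0667 to 0.103). NR1D2 did not pass in Dex (0.13, adjusted p = 0.159) or in vehicle (-0.11, adjusted p = 0.242), but did in Dex without WT-GR Dex replicate 3 (0.22, adjusted p = 0.0133). With WT-GR Dex replicate 1 alone it was 0.27. CRY1 and ARNTL did not pass in Dex (adjusted p = 0.521 and 0.581) or in vehicle (adjusted p = 0.135 and 0.192), with 95% intervals that reached at most -0.35, for ARNTL in vehicle.

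**Figure D3:**
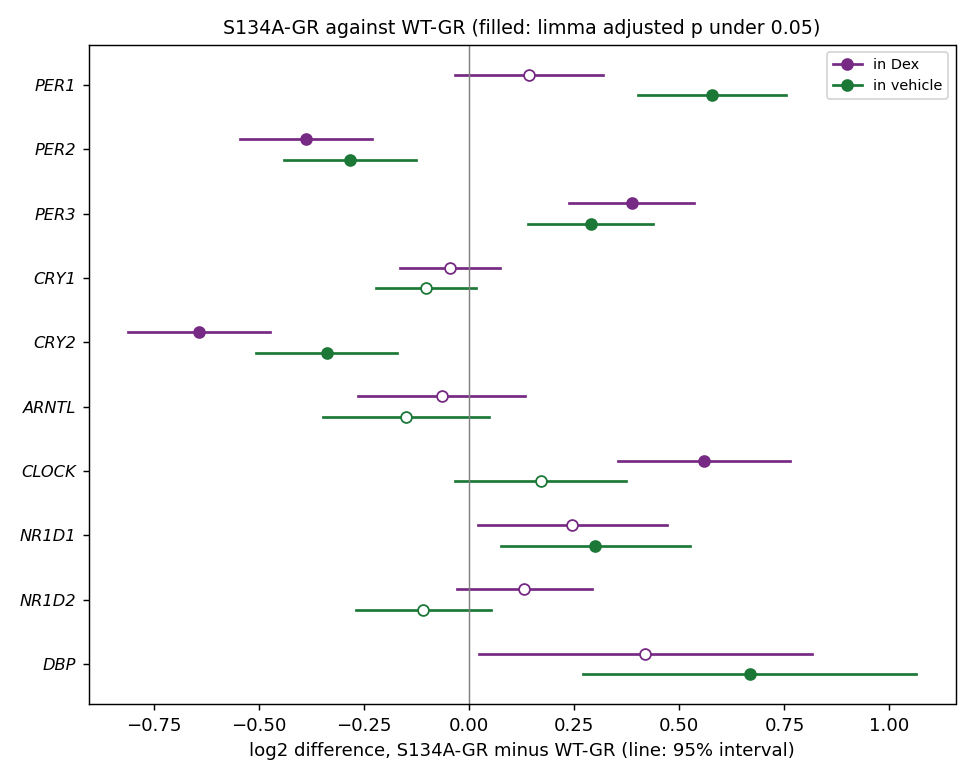
Log2 difference between S134A-GR and WT-GR cells for each core clock gene, in Dex above vehicle. Lines are 95% intervals and filled points have a limma adjusted p under 0.05. PER2 and CRY2 lie below 0 and PER3 above 0 in both treatments, while PER1 is filled in vehicle alone and CLOCK in Dex alone.

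Levels of different genes were set against each other per kilobase of GENCODE exon. On this scale PER1 led in Dex, at 1928 ± 99.5 in S134A-GR cells and 1754.5 ± 218 in WT-GR cells. In vehicle NR1D2 led, at 949.9 ± 22.8 in S134A-GR cells and 1026 ± 77.7 in WT-GR cells, followed by CRY1 at 867 ± 8.14 and 932 ± 37.1. DBP was lowest in 3 groups, at 99.0 in S134A-GR Dex, 73.2 in WT-GR Dex and 80.6 in WT-GR Veh, and in S134A-GR Veh PER2 was lowest at 87.1, against 127 for DBP. The ratio of PER1 to PER2 averaged 17.0 ± 1.38 in S134A-GR Dex, 3.87 ± 0.0906 in S134A-GR Veh, 11.8 ± 1.59 in WT-GR Dex and 2.13 ± 0.11 in WT-GR Veh (SD, n = 3 each). No library of one group entered the range of another. CRY2 was below CRY1 in all 12 libraries, at ratios of 0.323 ± 0.00807 in S134A-GR Dex, 0.207 ± 0.0084 in S134A-GR Veh, 0.49 ± 0.043 in WT-GR Dex and 0.244 ± 0.0186 in WT-GR Veh. The ratio of NR1D2 to NR1D1 was 3.25 ± 0.329 in S134A-GR Dex, 1.76 ± 0.118 in S134A-GR Veh, 3.59 ± 0.931 in WT-GR Dex and 2.34 ± 0.146 in WT-GR Veh. The ratio of CLOCK to ARNTL was 2.77 ± 0.085 in S134A-GR Dex, 2.42 ± 0.0238 in S134A-GR Veh, 1.80 ± 0.129 in WT-GR Dex and 1.96 ± 0.437 in WT-GR Veh. Dex and vehicle ranges of this ratio overlapped in WT-GR cells and not in S134A-GR cells.

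**Figure D4:**
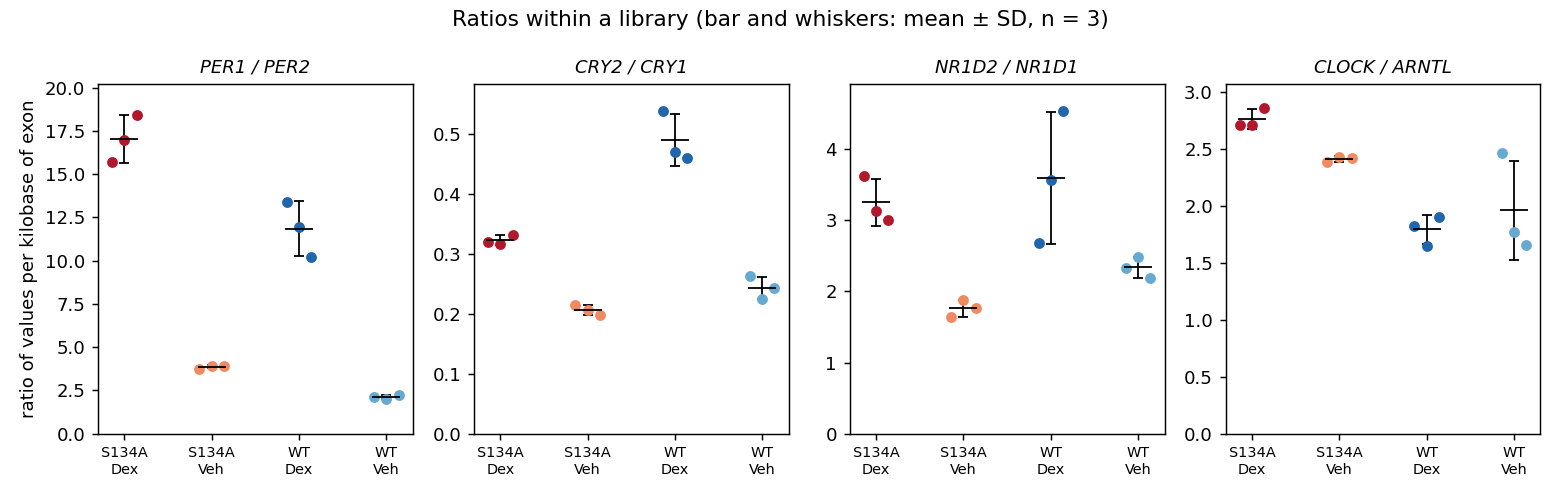
Ratio of values per kilobase of exon (vertical axis, from 0) within each library for 4 pairs of clock genes, by group. Points are libraries, bars and whiskers the mean ± SD (n = 3). The PER1 to PER2 ratio is highest in S134A-GR Dex, at a mean of 17.0, and the CRY2 to CRY1 ratio in WT-GR Dex, at 0.49.

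Beyond the core, 31 further clock genes were listed, of which 30 had values and all 30 passed the filter. In S134A-GR cells 2 rose with Dex (CSNK1D 0.32, NAMPT 0.40 on the log2 scale) and 3 fell (ARNTL2 -0.25, BHLHE40, BHLHE41), against 7.99% and 7.76% of all genes. In WT-GR cells 5 rose (CSNK1D 0.42, NAMPT 0.39, NFIL3 0.30, CSNK1E, USP2) and 4 fell (ARNTL2 -0.32, PRKAA2 -0.40, BHLHE40, BHLHE41), against 13.9% and 14% of all genes. Those given by a value alone were named after their values were seen. CSNK1D encodes a kinase that marks PER proteins for degradation, NAMPT the rate-limiting enzyme of NAD salvage, and ARNTL2 a paralog of ARNTL. The median absolute log2 change of the 30 was 0.12, with 0.13 over all genes, in S134A-GR cells, and 0.12, with 0.19 over all genes, in WT-GR cells. None of the 30 passed with limma for the difference of responses, against 0.414% of all genes. Unadjusted p-values under 0.05 were found for 6 of them, against 17.5% of all genes, which is near their own share. For this difference edgeR with TMM scaling also called 0 of them, and DESeq2 called 2 (BHLHE40 and BHLHE41), against 3.16% of genes. Between genotypes 9 were higher and 7 lower in S134A-GR cells in Dex, against 23.4% and 26.3% of genes, and 9 higher and 9 lower in vehicle, against 23.8% and 26.7%.

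BHLHE40 and BHLHE41 are repressors that compete for E-boxes, and their promoter windows each held one, from -245 to -240 and from -48 to -43. BHLHE40 had 6843, 6798 and 7104 in S134A-GR Dex, against 12152, 12499 and 12025 in S134A-GR Veh, and 15950.3, 14678 and 14873 in WT-GR Dex, against 21995, 22828 and 21481 in WT-GR Veh. The 4 groups were separate, and the gene fell with Dex to 0.566 of the vehicle mean in S134A-GR cells (log2 difference -0.82 ± 0.043, adjusted p = 8.31e-09) and to 0.686 in WT-GR cells (-0.54 ± 0.043, adjusted p = 6.28e-07). BHLHE41 had 1565, 1430.0 and 1490.0 in S134A-GR Dex, against 1808, 1860.2 and 1685 in S134A-GR Veh, and 695, 646 and 686 in WT-GR Dex, against 1103, 1109.7 and 1107 in WT-GR Veh. It fell by 0.25 in S134A-GR cells (adjusted p = 0.0152) and by 0.71 in WT-GR cells (adjusted p = 2.45e-06), the S134A-GR call being lost without S134A-GR Veh replicate 1 or 2 or S134A-GR Dex replicate 2 or 3 (-0.25 to -0.22, adjusted p 0.0543 to 0.0792). The responses differed by -0.28 for BHLHE40 (adjusted p = 0.0719) and 0.46 for BHLHE41 (adjusted p = 0.0567), neither past the threshold. Without WT-GR Dex replicate 3 both passed, at -0.29 (adjusted p = 0.0257) and 0.47 (adjusted p = 0.0222). Between genotypes the log2 difference of BHLHE40 was -1.13 in Dex (adjusted p = 5.33e-10) and -0.85 in vehicle (adjusted p = 5.93e-09), lower in S134A-GR cells. That of BHLHE41 was 1.14 in Dex (adjusted p = 1.8e-08) and 0.69 in vehicle (adjusted p = 1.67e-06), higher in S134A-GR cells.

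CSNK1E, a kinase for PER proteins, and USP2, a deubiquitinase, were called with Dex in WT-GR cells from low values. CSNK1E had 87.7, 106 and 89.5 in S134A-GR Dex, against 121, 119 and 114 in S134A-GR Veh, and 119.5, 112 and 79.3 in WT-GR Dex, against 14.7, 62.4 and 68.4 in WT-GR Veh. Its WT-GR rise of 1.33 ± 0.43 (adjusted p = 0.0332) was 0.63 (adjusted p = 0.0521) without WT-GR Veh replicate 1, the lowest library, and was also lost without WT-GR Dex replicate 1 (1.215, adjusted p = 0.0985) or 2 (1.26, adjusted p = 0.0827). With WT-GR Dex replicate 1 alone in its group it was 1.56. Between genotypes CSNK1E had log2 differences of -0.12 in Dex (adjusted p = 0.841) and 1.53 in vehicle (adjusted p = 0.00852), where the ranges did not overlap and the difference was 0.84, still past the threshold, without WT-GR Veh replicate 1. Its responses differed by -1.65 (95% interval -2.95 to -0.35, adjusted p = 0.215), which did not pass. The gene shares 1316 exonic bases with the readthrough transcript TPTEP2-CSNK1E, so its counts are uncertain. USP2 had 71.9, 73.5 and 66.9 in S134A-GR Dex, against 69.7, 62.8 and 54.3 in S134A-GR Veh, and 59.8, 41.9 and 78.3 in WT-GR Dex, against 24.4, 35.9 and 43.2 in WT-GR Veh. Its WT-GR rise of 0.77 ± 0.27 (adjusted p = 0.0477), with overlapping ranges, was lost in 16 of 23 alternatives, 10 of them with 1 library left out (any but WT-GR Veh replicate 3 and WT-GR Dex replicate 2), where it ran from 0.55 to 0.82 (adjusted p 0.0594 to 0.181). Between genotypes USP2 had log2 differences of 0.28 in Dex (adjusted p = 0.415) and 0.86 in vehicle (adjusted p = 0.0165), the vehicle ranges being separate. That vehicle call was lost without S134A-GR Veh replicate 1 (0.78, adjusted p = 0.0634) or WT-GR Veh replicate 1 (0.64, adjusted p = 0.0757). The responses of USP2 differed by -0.59 (95% interval -1.41 to 0.24, adjusted p = 0.431).

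**Figure D5:**
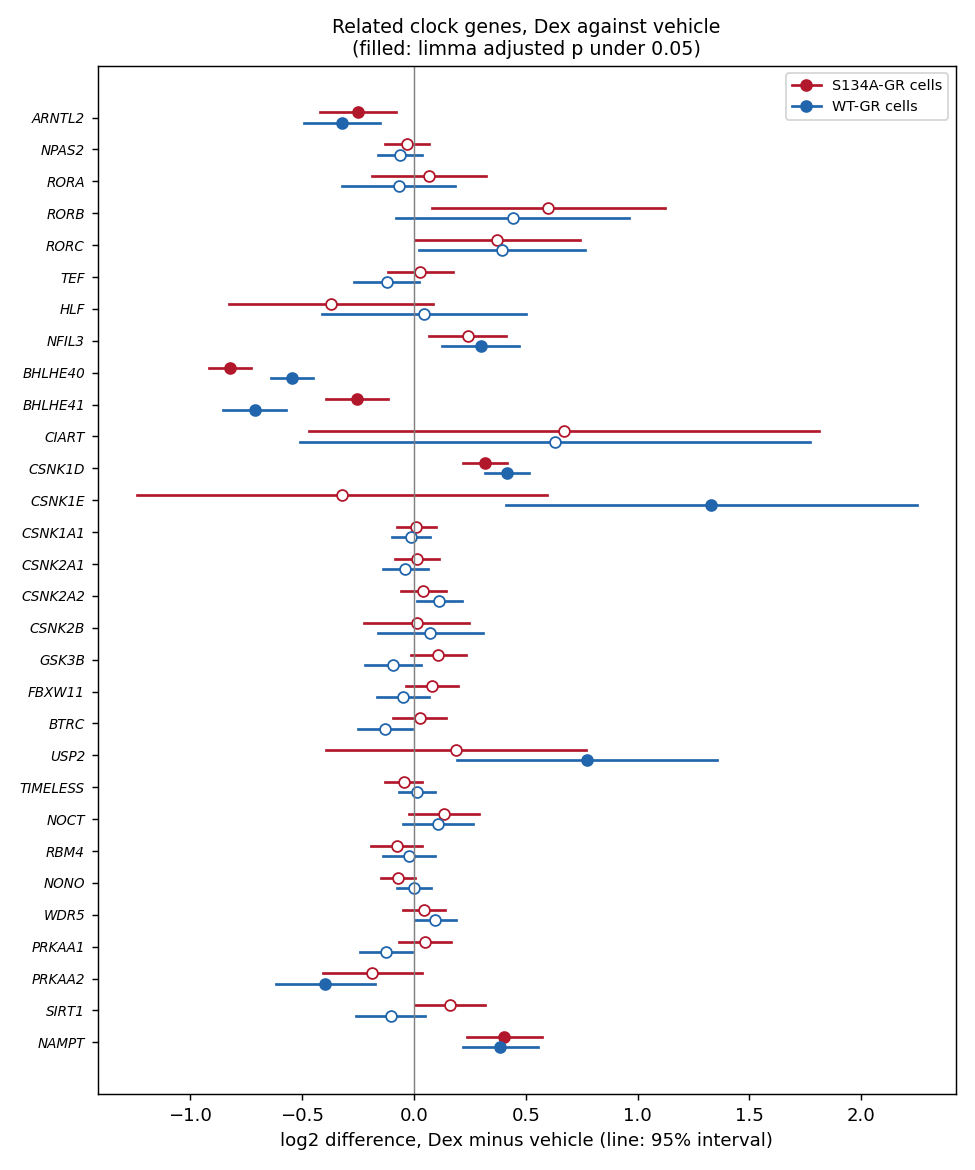
Log2 difference between Dex and vehicle for the 30 further clock genes, S134A-GR cells above WT-GR cells. Lines are 95% intervals and filled points have a limma adjusted p under 0.05. BHLHE40 in both genotypes and BHLHE41 in WT-GR cells lie lowest among the filled points, and most of the list lies near 0.

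The genes whose profiles over the 12 libraries were closest to PER1's were sought by the root mean square distance between centred log2 values. They were MT1X (0.18), MT1E (0.20) and SMIM3 (0.21), of which MT1X and MT1E encode metallothioneins, metal-binding proteins known to be induced by glucocorticoids. The metallothionein genes are near-identical copies of one another, so their counts are uncertain. The log2 difference of MT1X with Dex was 2.38 in S134A-GR cells and 2.58 in WT-GR cells, beside 2.52 and 2.95 for PER1. DBP, the member with the largest genotype difference in vehicle, was closest to PANX2 (0.14), GPER1 (0.15) and RHBDF1 (0.16). Between genotypes PANX2 had a log2 difference of 0.46 in Dex and 0.57 in vehicle, beside 0.42 and 0.67 for DBP.

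The members lie on 8 chromosomes in GRCh38, with only the pairs PER1 and NR1D1 (17) and CRY2 and ARNTL (11) sharing one. PER1 is at chr17:8140472-8152404, PER2 at chr2:238244044-238300065, PER3 at chr1:7784291-7845177, CRY1 at chr12:106991364-107093549 and CRY2 at chr11:45847118-45883244. ARNTL is at chr11:13276652-13387266, CLOCK at chr4:55427903-55546909, NR1D1 at chr17:40092793-40100589, NR1D2 at chr3:23945286-23980617 and DBP at chr19:48630030-48637379.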

How the data were processed

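RNA-seq of 12 MDA-MB-231 libraries, 3 in each group, was analysed from 1 deposited file per library. Each file holds a normalized signal per gene, which the authors made from read counts by dividing by a size factor. This was read from the values: all were whole multiples of 1 read, within a tolerance of 0.01 reads. The tools named in the submitters' processing notes are DESeq2 1.22.2, FastQC 0.11.7, and featureCounts from Subread, with the build hg38. The sources used here do not give the aligner, the annotation or the strand setting. Gene names of the Dex files are shifted against their values and were replaced by the vehicle files' names in line order (14926 names occur in both), so every Dex value rests on that step.

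Differences were tested with limma 3.58.1 in R 4.3.3 on log2(value + 1) with a mean-variance trend. The fit held all 12 libraries with 1 coefficient per group, and a gene was tested if 3 or more libraries had a value of 10 or higher. The groups thus shared 1 estimate of the spread of each gene, although WT-GR Dex varied the most (median SD 0.148 on the log2 scale). Tests were two-sided, adjusted by Benjamini-Hochberg over 15957 genes, at a threshold of 0.05. A log2 difference on this scale understates the change of low genes. Alternatives were edgeR 4.0.16 and DESeq2 1.42.0 on the recovered reads, other pseudocounts and filters, library weights, a replicate block and leaving out libraries.

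The members and lists were chosen with earlier results of these data known. All members are named. A gene of the wider clock list is not reported here and was left out of that list's counts. Of the further clock genes, those past the threshold with Dex in either genotype with an absolute log2 difference of at least 0.5 are described in full. Sequences and coordinates are from RefSeq on GRCh38.p14, exon lengths and overlaps from GENCODE.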

Additional observations from a re-analysis of the deposited data

How the results depend on the processing

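The calls of PER1, PER2 and CRY2 with Dex in both genotypes, of NR1D1 and NR1D2 in S134A-GR cells and of CLOCK in WT-GR cells kept their direction and their side of the threshold in all 23 alternatives run. Many of these alternatives leave a log2 difference as it is and move only its p-value. They are the filters, the replicate block, the compared groups only, and leaving out a library of a group outside the contrast. The direction could not change there, which limits this count and the next. Of 1140 values of members under the alternatives, 1073 kept both, 18 lost the call, 33 gained one and 16 changed sign, all 16 being values that had not passed. With 1 library left out, members called ran from 5 to 5 for Dex in S134A-GR cells, 5 to 6 for Dex in WT-GR cells, 0 to 3 for the difference of responses, 4 to 6 between genotypes in Dex and 5 to 7 in vehicle. For the difference of responses DESeq2 called 1 member (PER1), against 3.16% of all genes, and library weights 4, against 17.9%. In the fit without both WT-GR Dex replicates 2 and 3 the difference of responses was -0.62 for PER1 and 0.38 for NR1D2. There the group is 1 library, assumed to vary like those of the other groups. Library-size scaling in edgeR called 8 members between genotypes in Dex, with PER1, DBP, NR1D1 and NR1D2 beside those of the main fit, against 51.7% of genes. With Dex in WT-GR cells it also called PER3 (-0.24, adjusted p = 0.0264) and CRY1 (-0.18, adjusted p = 0.041), where 28% of genes passed and the median of all genes was -0.072. Limma with library weights called PER3 there too (-0.17, adjusted p = 0.0481), where 44.6% of genes passed. Library weights called 10 members between genotypes in vehicle, against 73.3% of genes, but their estimation stopped short of its tolerance and gave WT-GR Veh replicate 2 a weight of 11.2. The cause of these shifts was not tested.

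Sign changes with Dex in S134A-GR cells were found for CLOCK, at -0.0112 with library-size scaling, -0.029 with library weights, and -0.0011, -0.0004 and -0.0448 without S134A-GR Veh replicate 1, Veh replicate 2 and Dex replicate 1. Left-out libraries moved CLOCK here between -0.0448 and 0.0551, DBP with Dex in WT-GR cells between -0.2609 and 0.0045, and NR1D1's difference of responses between -0.1549 and 0.0695. In WT-GR cells DBP's Dex value was 0.0045 without WT-GR Veh replicate 3, and without both WT-GR Dex replicates 2 and 3 DBP was 0.0615 and NR1D2 -0.0061. For the difference of responses CRY1 was -0.0113 with library weights and NR1D1 0.0695 without WT-GR Dex replicate 1. Between genotypes in Dex, CRY1 was 0.069 and ARNTL 0.049 with library-size scaling, but -0.046 and -0.066 relative to the median of all genes. Without both WT-GR Dex replicates 2 and 3 they were 0.0149 and 0.0268, with PER1 at -0.0386 and NR1D1 at -0.0026.

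Over all genes, Dex in WT-GR cells called 4455 genes, against 2490 with the compared groups only, 7113 with library weights and 2963 without WT-GR Veh replicate 2. Dex in S134A-GR cells called 2513, against 3439 with the compared groups only and 5116 with library weights. Thus WT-GR cells had the larger share of genes called in the main fit, and S134A-GR cells with the compared groups only (21.6%, against 15.6%). The difference of responses called 66, against 504 with DESeq2, 2854 with library weights and 26 to 1604 with 1 library left out.

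Libraries with the same replicate number correlated at r = -0.085 to 0.051 in their deviations from the group means. Those with different numbers correlated at r = -0.051 to 0.092. No pairing by number was seen, but with 3 libraries per group these values cannot exclude that the numbers mark a shared batch. With the replicate number as a block, 5 members were called with Dex in S134A-GR cells, 5 in WT-GR cells (ARNTL lost, adjusted p = 0.0747), 0 for the difference of responses, 4 between genotypes in Dex and 6 in vehicle, and the difference of responses called 25 genes in all.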
